A study of Mus musculus with 8 samples.

Results

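Circular RNAs (circRNAs) of kidneys with acute-chronic injury (AC) were compared with those of control kidneys, over every circRNA the deposited table lists. The members were all 6315 circRNAs, each with a circBase identifier, in the 2 AC libraries against the 3 control libraries; the table also holds 3 libraries of unilateral ureteral obstruction (UUO), so that 5 of its 8 libraries form the comparison. All 3 groups were kidneys of C57BL/6L mice of 8 to 10 weeks, from total RNA taken with Trizol, and no other allele or agent is named for any of them. The AC and UUO titles carry day 5. The series' design text speaks of kidneys taken on day 5 after I/R or UUO, with sham-operated mice as controls; no label says that AC is the group called I/R there, and the titles call the controls WT, so the groups are named here by their labels. The labels do not say whether kidneys were pooled or whether each library came from its own mouse, so the p-values speak only of how these libraries varied, and part of that may be technical.

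A circRNA forms when the spliceosome joins the end of an exon back to the start of the same or an earlier exon, and the closed loop has no ends for exonucleases to attack. Such loops are therefore long-lived, and one host gene can give several loops that use different exons. In the injured kidney, tubule cells lose their polarity and transport programme, and in those that fail to recover, genes of inflammation, adhesion and growth-factor signalling stay on. The host gene of a circRNA is named below for orientation; a change in a loop's count can follow the host's transcription, its back-splicing or the loop's stability, and counts of the hosts' linear RNA were not analysed here. The libraries are of whole kidney, in which fewer cells of a type and less RNA per cell cannot be told apart.

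The promoters of the hosts of 6 circRNAs are shown because these circRNAs, 3 higher and 3 lower in AC, are all those that stayed past the threshold when any 1 of the 8 libraries was left out. Each run is the 250 bases before the most upstream RefSeq transcript start (build GRCm38.p6, which is not the build of the deposited circRNAs), read 5′ to 3′ on the gene's strand. Capitals mark a match, on either strand, to GTTAAT (part of the motif of the tubule factor HNF1) or GGGCGG (the GC box, bound by SP1).
Dcdc2a (chr13:25055754-25056003, plus strand): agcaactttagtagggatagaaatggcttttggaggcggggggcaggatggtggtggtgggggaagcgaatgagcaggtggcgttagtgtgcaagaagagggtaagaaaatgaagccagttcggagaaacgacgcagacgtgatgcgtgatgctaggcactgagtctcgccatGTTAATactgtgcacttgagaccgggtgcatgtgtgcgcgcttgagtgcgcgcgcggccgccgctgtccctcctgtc
Samd4 (chr14:46882715-46882964, plus strand): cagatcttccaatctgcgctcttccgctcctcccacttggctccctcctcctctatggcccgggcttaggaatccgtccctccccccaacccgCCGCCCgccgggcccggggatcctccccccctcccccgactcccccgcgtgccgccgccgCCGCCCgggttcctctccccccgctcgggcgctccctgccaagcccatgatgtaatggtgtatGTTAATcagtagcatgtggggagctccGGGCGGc
Sh2d4b (chr14:40893315-40893564, minus strand): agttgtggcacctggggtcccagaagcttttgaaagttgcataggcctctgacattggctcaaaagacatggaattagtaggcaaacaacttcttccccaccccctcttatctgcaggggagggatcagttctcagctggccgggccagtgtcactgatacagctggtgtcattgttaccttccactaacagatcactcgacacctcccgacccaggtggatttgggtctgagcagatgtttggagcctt
Cryl1 (chr14:57398484-57398733, minus strand): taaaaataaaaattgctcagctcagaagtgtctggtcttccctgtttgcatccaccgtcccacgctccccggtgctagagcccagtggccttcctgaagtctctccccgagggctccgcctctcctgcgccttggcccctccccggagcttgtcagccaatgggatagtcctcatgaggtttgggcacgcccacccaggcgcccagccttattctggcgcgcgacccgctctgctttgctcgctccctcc
Cpeb3 (chr19:37207472-37207721, minus strand): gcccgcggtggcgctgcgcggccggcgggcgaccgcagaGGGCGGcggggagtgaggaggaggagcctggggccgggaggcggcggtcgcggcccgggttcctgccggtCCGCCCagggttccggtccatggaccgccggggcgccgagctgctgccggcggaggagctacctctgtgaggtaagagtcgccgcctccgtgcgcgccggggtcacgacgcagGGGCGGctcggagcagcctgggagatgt
Arhgap32 (chr9:32016375-32016624, plus strand): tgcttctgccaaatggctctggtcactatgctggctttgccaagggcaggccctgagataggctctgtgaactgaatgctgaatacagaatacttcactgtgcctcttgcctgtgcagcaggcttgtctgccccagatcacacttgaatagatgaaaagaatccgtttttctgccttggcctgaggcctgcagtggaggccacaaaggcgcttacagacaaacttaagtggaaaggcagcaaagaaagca
The Dcdc2a and Samd4 promoters each held 1 GTTAAT. Sh2d4b, Cryl1 and Arhgap32 had no match in this window to any of 6 motifs searched, and Cpeb3 and Samd4 each held 3 GC boxes.

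RefSeq gave a promoter for 22 of the 26 hosts with a circRNA higher in AC, 13 of the 15 hosts with a lower one, and 757 of the 1016 hosts of tested circRNAs. GTTAAT lay in 2 of the 22 promoters (9.1%), in 0 of the 13, in 3.3% of the tested hosts' promoters and in 6.5% of all 27025 mouse promoters in the table. The GC box lay in 17 of 22 (77.3%) and 6 of 13 (46.2%), beside 66.8% of the tested hosts. The TEAD motif GGAATG was found for Ptpn14 and Trip6 among the higher and for Klhl3 and Oxct1 among the lower hosts, beside 10.0% of tested hosts. No promoter of either group held TGANTCA (AP-1), the NF-kB motif or CAAAGTCC (HNF4), which lay in 3.2%, 0.4% and 0.5% of the tested hosts' promoters. These matches describe letters in a window; binding was not measured.

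The AC libraries held 49147 and 40865 circRNA counts and the controls 43971 to 65145. An AC library had 3396 or 3471 circRNAs above 0 and a control library 3411 to 3811. Of the listed circRNAs, 1888 were at 0 in both AC libraries and 1223 in every control library. AC had fewer libraries than control, so these counts of circRNAs at 0 cannot be compared directly and show no loss in AC. The filter on low counts left 1471 circRNAs (23.3% of those listed), which held 82.5% to 84.8% of each library's counts. At this depth 1 count was worth 18.9 to 29.2 CPM (counts per 1000000 circRNA counts kept by the filter, with TMM factors), and the median listed circRNA had 9 counts over the 5 libraries. Over the tested circRNAs the log2 CPM of the AC libraries correlated with r = 0.68, control pairs with 0.72 to 0.77, AC with control libraries with 0.63 to 0.68, and AC with UUO libraries with 0.70 to 0.74. The AC libraries thus correlated less with each other than with any UUO library. These are descriptions across circRNAs, which are not independent replicates, and the points share libraries and low counts.

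Of 1471 tested circRNAs, 49 (3.33%) passed an adjusted p of 0.05 in edgeR's quasi-likelihood test of AC against control, 28 higher in AC (1.9%) and 21 lower (1.43%). They came from 41 hosts, and 2 carried no host name. The higher ones had a median level of 541 CPM in control and 1913 CPM in AC. The lower ones had medians of 2376 CPM in control and 604.1 CPM in AC. The control median over all tested circRNAs was 323.1 CPM, below that of both groups of calls. The change was at least 2-fold for 25 of the higher and 20 of the lower circRNAs, by the fitted value. In 48 of the 49 the AC and control libraries did not overlap; Nrg1 was the exception, with 1 AC library at 0. Over all tested circRNAs, 452 (30.7%) had no overlap and 207 (14.1%) had an unadjusted p under 0.05. An entry in the table's experimental evidence column stood beside 29 of the 49 (59.2%) and 560 of the 1471 (38.1%).

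These calls rest on 2 AC libraries. Of the 49, 10 were still past the threshold without AC replicate 1, 15 without AC replicate 2 and 11 without control replicate 3; leaving out any other single library kept 30 to 35. The circRNAs of Dcdc2a, Sh2d4b, Samd4, Cryl1 and Cpeb3 and 1 of Arhgap32 passed in all 8 refits, 26 in at least 5, and the circRNAs of H6pd, Dusp16, Rras2 and Slc4a4 and the hostless mmu_circ_0000903 in none. With the authors' per-library constant in place of the circRNA total, 29 circRNAs were called (7 of them higher and 22 lower than control), and the median log2 difference of all tested circRNAs went from -0.01 to -0.34; the 49 all kept their sign. The balance of higher to lower calls therefore depends on the scaling.

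**Figure D1:**
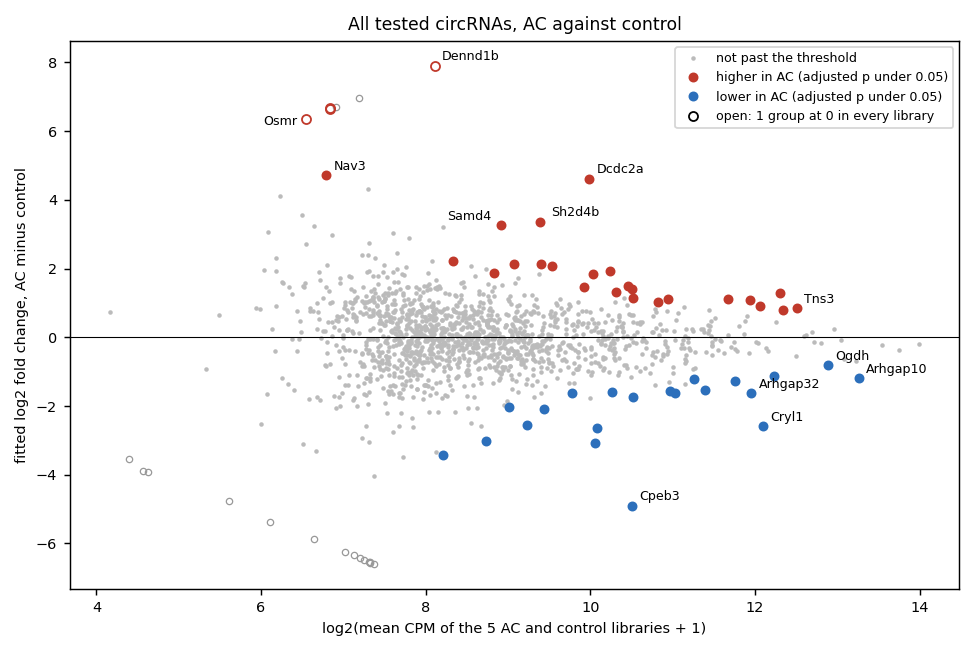
Fitted log2 fold change of AC against control (vertical axis) against log2 of the mean CPM of the 5 libraries plus 1 (horizontal axis) for the 1471 tested circRNAs. Red points (28) were higher and blue points (21) lower in AC at an adjusted p under 0.05, grey points did not pass; open points have 1 group at 0 in every library, where the fitted value depends on the prior count. The lower calls lie to the right of most circRNAs, and the calls with the largest fitted increases lie to the left.

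Dcdc2a, which encodes a doublecortin-domain protein of microtubules and the primary cilium, gave the clearest increase. Its single listed circRNA, mmu_circ_0004549, had 97 and 85 counts in AC and 5, 4 and 4 in control, or 2382 ± 137 (SD, n = 2) against 97.0 ± 31.3 CPM (SD, n = 3). The AC libraries were close to each other and far above the controls, 24.5-fold by the fit (log2 4.62, SE 0.34, adjusted p = 3.52e-07). Refits without 1 library gave log2 values of 4.46 to 4.87.

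Samd4 encodes Smaug1, an RNA-binding repressor of translation. Its circRNA mmu_circ_0000529 had 41 and 39 counts in AC and 2, 6 and 7 in control, a 9.60-fold difference (log2 3.26, SE 0.44, adjusted p = 0.000415). Sh2d4b, a host that encodes an SH2-domain protein, gave mmu_circ_0005234 with 74 and 41 counts in AC and 3, 12 and 5 in control, a 10.2-fold difference (log2 3.36, SE 0.56, adjusted p = 0.00325). Both loops were above every control library in both AC libraries, and the AC libraries of Sh2d4b were 1743 and 1196 CPM, wider apart than those of Samd4.

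In 4 of the higher circRNAs all 3 control libraries were at 0, so that only a lower bound of the fold can be given, set against 3 counts over the control group. These 4 passed the filter on low counts only through injured libraries, so their entry into the test was not independent of their high level there. Over all 1471 tested circRNAs, 20 had the AC or the control group at 0 in every library. Of all 6315 listed circRNAs, 1223 were at 0 in every control library. The circRNA mmu_circ_0008223 of Dennd1b, a host that encodes an exchange factor for the endosomal GTPase Rab35, had 35 and 19 counts in AC, at least 31.9-fold higher. It was lost without AC replicate 1 (adjusted p = 0.274), without AC replicate 2 and without control replicate 3, and its bound was 19.8 without control replicate 2. Espl1, the host that encodes separase, which cuts cohesin at anaphase, gave mmu_circ_0000652 with 13 and 9 counts, at least 13.2-fold higher, and Osmr, the oncostatin M receptor, gave mmu_circ_0005739 with 11 and 7, at least 10.7-fold higher. Both of these passed in 3 of 8 refits, and their bounds were 8.15 and 6.64 without control replicate 2. Both were lost on leaving out any 1 of the 3 UUO libraries, and neither passed by limma (adjusted p = 0.151 and 0.196). With only the AC and control libraries in the fit, Espl1 did not pass (adjusted p = 0.291) and Osmr had no value.

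The circRNA of Nrg1, mmu_circ_0014776, had 24 counts in AC replicate 1 and 0 in AC replicate 2. Nrg1 encodes neuregulin 1, a ligand of ERBB receptors. With only the AC and control libraries in the fit, this circRNA had no value. The bound over both AC libraries was 13.1-fold, without AC replicate 1 the loop has no count in either group (adjusted p = 1), and the call rests on that library. Nav3, which encodes a microtubule-binding neuron navigator, gave mmu_circ_0000211 with 10 and 10 counts in AC and 0, 0 and 1 in control, a count ratio of 36.2 with an exact 95% interval of 5.79 to 1501. That interval covers counting error only, and the call held in 1 of 8 refits (adjusted p up to 0.138, without UUO replicate 1).

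**Figure D2:**
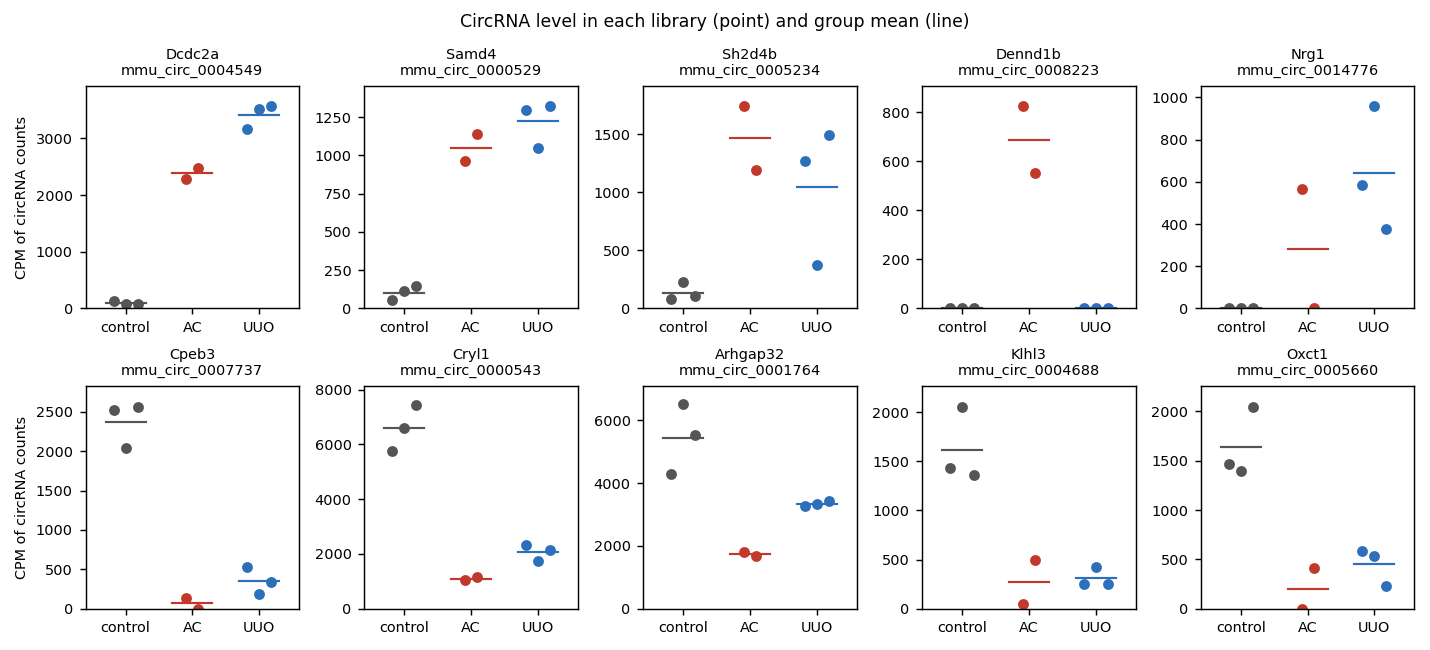
CPM of 10 circRNAs in each library (points) with the group mean (line), in control, AC and UUO kidneys, on a linear axis from 0. The upper row shows circRNAs higher in AC and the lower row circRNAs lower in AC; Dennd1b stands at 0 in control and UUO, and Nrg1, Cpeb3 and Oxct1 each have 1 AC library at 0.

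Further increases of 3.56-fold to 4.66-fold were called for 7 circRNAs, of Mbnl2, Nedd9, Ptpn13, Ptpn14, Vav3, Jmjd1c and Smox. Mbnl2, a muscleblind splicing regulator, had 46 and 49 counts in AC and 10, 12 and 17 in control for mmu_circ_0004992, a 4.42-fold difference (log2 2.15, SE 0.40, adjusted p = 0.00851). It was lost in 1 refit, without AC replicate 2 (adjusted p = 0.0787). Nedd9, a scaffold of focal adhesions, gave mmu_circ_0004594 with 27 and 20 counts against 3, 4 and 11 (4.66-fold, adjusted p = 0.0326), and this call held in 1 of 8 refits (adjusted p up to 0.198, without AC replicate 1). The protein tyrosine phosphatase host Ptpn13 had 44 and 33 counts of mmu_circ_0001372 against 10, 9 and 12 (4.39-fold, adjusted p = 0.0221), passing in 4 of 8 refits (adjusted p up to 0.134, without AC replicate 1). In all 3 loops the lower AC library was above the highest control library.

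Ptpn14, a phosphatase that binds the Hippo effector YAP, had 90 and 76 counts in AC and 29, 32 and 16 in control for mmu_circ_0000130 (3.84-fold, adjusted p = 0.0114). The exchange factor host Vav3 gave mmu_circ_0010364 with 35 and 27 counts against 6, 12 and 13 (3.62-fold, adjusted p = 0.0221). Jmjd1c, a host that encodes a jumonji-domain chromatin protein, gave mmu_circ_0000173 with 90 and 54 counts against 15, 32 and 26 (3.56-fold, adjusted p = 0.0182). Each of these 3 was lost without AC replicate 1, with adjusted p of 0.0657, 0.134 and 0.150. Smox, the spermine oxidase host, had 58 and 47 counts of mmu_circ_0001068 against 12, 27 and 6, a 4.25-fold difference (adjusted p = 0.0194, and 0.0988 without AC replicate 1).

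Smaller increases, of 1.72-fold to 2.79-fold, were called for the remaining 13 circRNAs. Their hosts were Psd3 (with 2 circRNAs), Smad1, Nfkb1, Cd2ap, H6pd, Fam160b1, Trip6, Glis3, Dusp16, Tns3 and Rras2, beside mmu_circ_0000903 with no host. Smad1, which carries the signal of bone morphogenetic proteins, had 58 and 61 counts of mmu_circ_0001699 against 31, 22 and 23. Cd2ap, an adaptor between membrane receptors and actin, had 309 and 288 counts of mmu_circ_0006764 against 81, 232 and 149. Tns3, a focal-adhesion tensin, gave 310 and 294 counts of mmu_circ_0000233 against 163, 275 and 179, where raw counts lie near control replicate 2 but CPM does not overlap. The other tested Tns3 loop, mmu_circ_0000234, had 306 and 317 counts against 292, 513 and 403 and did not pass (log2 -0.065, adjusted p = 0.931). The calls of Smad1, Cd2ap and Tns3 passed in 1, 5 and 3 of 8 refits. With the authors' constant none of these 3 passed (adjusted p of 0.1265, 0.2282 and 0.4886).

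Among the decreases, the Cpeb3 circRNA mmu_circ_0007737 had the largest fitted fold. Cpeb3 encodes a protein that binds cytoplasmic polyadenylation elements of mRNAs. It had 6 and 0 counts in AC and 95, 108 and 124 in control, or 141.4 and 0 CPM against 2376 ± 293 CPM (SD, n = 3), a 29.8-fold difference by the fit (log2 -4.90, SE 0.64, adjusted p = 0.000390). All refits passed, with log2 values from -4.07 to -9.71, the latter without AC replicate 1, when AC stands at 0 and the fitted value is no bound.

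Cryl1, which encodes a crystallin-like dehydrogenase of the uronate pathway, gave mmu_circ_0000543 with 44 and 40 counts in AC and 216, 349 and 359 in control. This was 1102 ± 92.1 (SD, n = 2) against 6584 ± 840 CPM (SD, n = 3), a 5.98-fold lower level (log2 -2.58, SE 0.26, adjusted p = 1.48e-05). It was among the steadiest values of the comparison: refits gave log2 values of -2.54 to -2.69.

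A circRNA each of Klhl3 and Papss1 was lower in AC. Klhl3, the adaptor through which cullin 3 marks WNK kinases for degradation in the distal nephron, had 2 and 17 counts of mmu_circ_0004688 in AC and 54, 109 and 66 in control (6.22-fold lower, adjusted p = 0.0221). Both AC libraries were below every control library, though far apart from each other, and the call was lost without AC replicate 1 (log2 -1.75, adjusted p = 0.134) and without control replicate 3. Papss1, which makes the sulfate donor PAPS, had 11 and 1 counts of mmu_circ_0001170 against 38, 54 and 33 (5.87-fold lower, adjusted p = 0.0228). It passed in 3 of 8 refits (adjusted p up to 0.187, without AC replicate 2).

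The bicarbonate cotransporter host Slc4a4 had 10 and 4 counts of mmu_circ_0012844 in AC against 33, 38 and 30 (4.05-fold lower, adjusted p = 0.0400). It passed in none of the 8 refits, and a second circRNA of Slc4a4, mmu_circ_0012846, had 17 and 7 counts against 6, 31 and 5 (adjusted p = 0.972). Lactb2, a mitochondrial endoribonuclease host, had 11 and 7 counts of mmu_circ_0008185 against 32, 59 and 50 (4.26-fold lower, adjusted p = 0.0182; 0.131 when AC replicate 2 was left out). Tpr, a nuclear pore basket protein, gave mmu_circ_0000086 with 0 and 3 counts against 17, 20 and 27, a count ratio of 11.8 with an exact 95% interval of 3.85 to 58.6 that covers counting error only; it passed in 1 of 8 refits (adjusted p up to 0.271, without AC replicate 1). The hostless mmu_circ_0000822 had 4 and 2 counts against 37, 25 and 25 (8.15-fold lower, adjusted p = 0.0221), and passed in 4 of 8 refits.

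A further 3 hosts gave a loop about 3-fold lower in AC. Snx29, a sorting nexin, had 49 and 46 counts of mmu_circ_0006062 against 150, 164 and 185 (2.91-fold, adjusted p = 0.0114). Pms1, a relative of the mismatch repair factors, had 40 and 31 counts of mmu_circ_0000038 against 95, 109 and 174 (2.95-fold, adjusted p = 0.0179), and Tdrd3, a Tudor-domain partner of topoisomerase 3 beta, had 27 and 16 counts of mmu_circ_0000561 against 70, 66 and 92 (2.99-fold, adjusted p = 0.0327). Each of the 3 was lost without AC replicate 1 and without AC replicate 2, and Pms1 and Tdrd3 also without control replicate 3 (highest adjusted p 0.0988, 0.0988 and 0.213).

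Several circRNAs of the same host were lower together. Arhgap32, a GTPase-activating protein, had 9 listed circRNAs, of which 5 were tested and 4 passed, all lower in AC. The most abundant, mmu_circ_0001764, had 77 and 58 counts in AC and 161, 345 and 268 in control (3.11-fold lower, adjusted p = 0.00121), and it passed in every refit. The other called loops were mmu_circ_0001765 with 57 and 48 against 106, 180 and 159, mmu_circ_0015520 with 29 and 18 against 51, 108 and 132, and mmu_circ_0001763 with 9 and 20 against 47, 61 and 57. Their fitted folds were 2.31, 3.36 and 3.05 lower, and mmu_circ_0001763 passed in 1 of 8 refits (adjusted p up to 0.399, without AC replicate 1). The fifth tested loop, mmu_circ_0015524, was at 0 in both AC libraries and at 0, 13 and 12 in control, and did not pass (adjusted p = 0.359).

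The host Arhgap10 encodes another GTPase-activating protein of this family, and its mmu_circ_0001692 was among the 5 most abundant tested circRNAs of control kidney. It had 213 and 210 counts in AC and 422, 630 and 717 in control, or 5572 ± 783 (SD, n = 2) against 12640 ± 1917 CPM (SD, n = 3), 2.27-fold lower (adjusted p = 0.00304). The call was lost in 1 refit, without AC replicate 1 (adjusted p = 0.0674). A second Arhgap10 loop, mmu_circ_0001691, passed with 67 and 74 counts against 155, 186 and 283, and mmu_circ_0014982 had 41 and 53 against 115, 122 and 115 without passing (adjusted p = 0.0846).

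Oxct1 and Bckdhb, both mitochondrial, gave loops in the same direction. Oxct1 encodes the enzyme that activates ketone bodies for oxidation, and both of its tested circRNAs passed: mmu_circ_0000571 had 40 and 31 counts in AC against 112, 125 and 156 (3.08-fold lower), and mmu_circ_0005660 had 0 and 14 against 55, 74 and 99 (8.46-fold lower by the fit). The second has 1 AC library at 0 and was lost without AC replicate 1 (adjusted p = 0.106). Bckdhb, a subunit of the dehydrogenase for branched-chain keto acids, had 126 and 91 counts of mmu_circ_0001822 against 181, 360 and 326 (2.18-fold lower, adjusted p = 0.0194). The 2 other tested Bckdhb circRNAs, at log2 -1.71 and -1.10, did not pass.

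In all, 4 hosts had 2 or more calls (Arhgap32, Arhgap10, Oxct1 and, with higher loops, Psd3), and no host had calls in both directions. A further 28 tested circRNAs of 16 called hosts did not pass; 22 of these had the sign of their host's call. For 24 calls the circRNA was the host's only tested one.

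**Figure D3:**
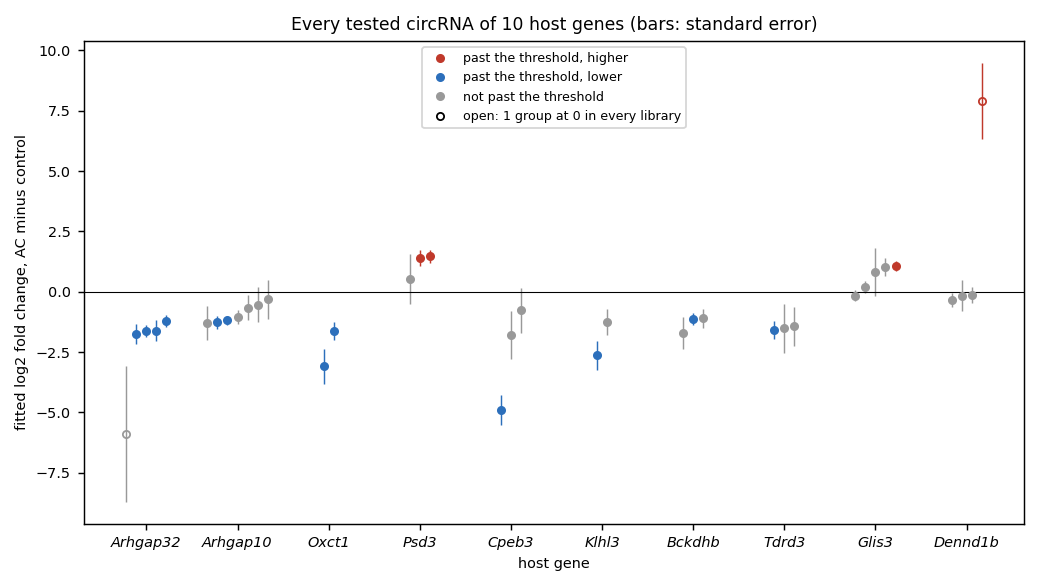
Fitted log2 fold change of AC against control (vertical axis; bars are standard errors) for every tested circRNA of 10 hosts. The Arhgap32 loops lie together below 0, whereas 1 Dennd1b loop stands apart from the other 3; open points have 1 group at 0 in every library, where the fitted value is no bound.

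Summing all listed circRNAs of a host gave more counts per test where a host had several. Of 1185 hosts tested, 41 (3.46%) passed, 24 higher in AC (2.03%) and 17 lower (1.43%), and 178 had an unadjusted p under 0.05. Of the 41 hosts with a called circRNA, 34 passed as a sum too. Only 26 of the 41 sums that passed were over more than 1 listed circRNA. The others held the counts of a single loop tested again, so their pass is no added support. Those whose sum did not pass were Dennd1b, Glis3, Tns3, Tpr, Slc4a4, H6pd and Dusp16; the Glis3 loop mmu_circ_0000943 was 2.11-fold higher with 247 and 192 counts, while its host's sum of 592 and 516 against 399, 568 and 536 differed 1.31-fold (adjusted p = 0.143). The sums of Arhgap32 (172 and 145 against 374, 713 and 628), Arhgap10 (370 and 368 against 744, 1029 and 1201), Cpeb3 (25 and 7 against 126, 171 and 161) and Oxct1 (40 and 45 against 169, 200 and 264) were 3.01-fold, 2.25-fold, 8.23-fold and 4.18-fold lower. These 4 passed in all 8 refits, as did Cryl1, Ptpn14, Samd4, Sh2d4b and Dcdc2a. Cryl1, Ptpn14 and Dcdc2a have 1 listed circRNA each, and the same counts of Ptpn14 passed in 5 of 8 refits as a loop.

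The fit of host sums brought in 7 hosts none of whose loops passed in the fit of circRNAs. Smarca2, the BRM ATPase of the SWI/SNF chromatin remodeller, had 19 and 19 counts over 7 circRNAs in AC and 60, 137 and 74 in control (3.92-fold lower; log2 -1.97, SE 0.39, adjusted p = 0.00413). It was lost in 1 refit, without AC replicate 1 (adjusted p = 0.0769). Of the 7 loops, 4 were at 0 in both AC libraries, beside 1888 of all 6315 listed circRNAs. Among the 4, mmu_circ_0007642 had 6, 8 and 7 counts in control and mmu_circ_0007643 had 12, 2 and 6. The 2 tested loops had 4 and 6 counts in AC against 28, 35 and 14 (mmu_circ_0007644) and 9 and 11 against 12, 80 and 39 (mmu_circ_0007648). The remaining loop, mmu_circ_0007649, went the other way, with 6 and 2 counts against 1, 3 and 0.

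Dmxl2, a rabconnectin host, had 0 and 1 counts over 6 circRNAs in AC and 7, 30 and 34 in control, a count ratio of 39.2 (exact 95% interval 6.81 to 1570, counting error only; adjusted p = 0.0176, and 0.178 without AC replicate 1). Ipcef1 had 0 and 2 against 15, 31 and 19, a ratio of 17.9 (4.77 to 151.3), and passed in 2 of 8 refits (adjusted p = 0.0467, up to 0.246 without AC replicate 1). Ankib1, a ubiquitin ligase of the RBR class, had 226 and 211 against 484, 355 and 509 (1.79-fold lower, adjusted p = 0.0264), passing in 1 of 8 refits (adjusted p up to 0.218, without AC replicate 1). These 3 sums were below every control library in both AC libraries.

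Higher sums without a called loop came from Myo9a, a myosin with a GTPase-activating domain, with 59 and 48 counts over 10 circRNAs against 21, 10 and 24 (3.34-fold; log2 1.74, SE 0.41, adjusted p = 0.0174, and 0.0923 without AC replicate 1). Arhgap26, a further GTPase-activating protein, had 253 and 259 against 163, 208 and 170 (1.68-fold, adjusted p = 0.0264, and 0.339 without AC replicate 2). Mtap1s had 13 and 10 against 0, 0 and 0, at least 13.9-fold higher (8.57 without control replicate 2), with an adjusted p of 0.0493, and it passed in none of the 8 refits. Mtap1s has 1 listed circRNA, so nothing was summed. The same counts passed in the fit of hosts but not in that of circRNAs. The sums of these GTPase-activating hosts thus differed in direction: Arhgap10 and Arhgap32 were lower and Arhgap26 and Myo9a higher in AC.

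A test of each circRNA against the other tested circRNAs of its host covered 705 circRNAs of 268 hosts, and 1 passed (0.142%), with 19 at an unadjusted p under 0.05. This was mmu_circ_0008223 of Dennd1b (adjusted p = 0.000426), and without AC replicate 1 no circRNA passed. The 3 other tested Dennd1b loops had 74 and 35 against 68, 67 and 73 (mmu_circ_0000081), 60 and 49 against 67, 99 and 82 (mmu_circ_0000083) and 21 and 5 against 20, 19 and 10 (mmu_circ_0008220). The sum over the host's 9 circRNAs was 194 and 111 in AC and 161, 195 and 186 in control, a log2 difference of -0.04 (SE 0.23). For this host, 1 loop appeared at a level where the total did not differ beyond its error. That loop was at 0 in every control and UUO library, so it entered the test only through the AC libraries, where it is high.

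Lists of host genes by function place the calls among their pathways; they were drawn up with earlier results of these data known, so their counts describe and do not test. Over all 1471 tested circRNAs the median log2 difference was -0.01, 726 were positive, and 49 passed (3.33%), 28 higher (1.9%) and 21 lower (1.43%). Of the failed-repair list, 3 circRNAs were tested and 2 passed, Dcdc2a and Nfkb1, the gene of the NF-kB subunit p50, whose mmu_circ_0010477 had 80 and 71 counts against 24, 47 and 41 (2.48-fold, adjusted p = 0.0221, and 0.144 without AC replicate 2). The other, of Dock10, had 0 and 15 against 7, 13 and 12. With the authors' constant Dcdc2a alone of the 3 passed.

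The signalling lists had positive medians, and the scale bore on their calls: with the authors' constant the ERBB and interleukin-6 list kept 1 call (Nrg1), and the TGF-beta and Hippo lists kept none. Over all tested circRNAs, 1.9% passed as higher. In ERBB and interleukin-6 family signalling, 2 of 10 tested circRNAs passed (Nrg1 and Osmr) and the median was 0.70 (0.31 with the constant); the receptor host Erbb4 had 2 tested circRNAs, at log2 1.14 (SE 1.15) and 0.89 (SE 0.93), and neither passed. In the TGF-beta and BMP pathway 1 of 10 passed (Smad1), with a median of 0.73 (0.41 with the constant); of the 4 tested loops of Smad4, the shared partner of receptor-activated Smads, the most abundant, mmu_circ_0000894, had 76 and 52 counts against 74, 79 and 147. In the Hippo list 2 of 17 passed (Ptpn14 and Trip6) and the median was 0.37, which became 0.03 with the authors' constant as the scale, against -0.34 for all circRNAs. Trip6, a LIM protein of the zyxin family, had 232 and 142 counts of mmu_circ_0012217 against 88, 145 and 77 (2.16-fold, adjusted p = 0.0228, and 0.298 without AC replicate 1).

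The nephron and metabolic lists had negative medians. Their calls stand beside 1.43% of all tested circRNAs that passed as lower. In nephron transport and its regulators 2 of 16 passed, both lower (Klhl3 and Slc4a4), with a median of -0.62. Lrp2, the megalin gene of the proximal tubule, had 26 and 21 counts against 9, 92 and 47 and did not pass (adjusted p = 0.676). In mitochondrial fuel oxidation, lipid and amino acid enzymes 4 of 13 passed, all lower (2 of Oxct1, 1 each of Bckdhb and Ogdh), with a median of -0.91; with the authors' constant the Ogdh call was lost (adjusted p = 0.0639). Ogdh, of the tricarboxylic acid cycle, had 212 and 186 counts of mmu_circ_0000231 against 301, 618 and 378 (1.76-fold lower, adjusted p = 0.0415), passing in 1 of 8 refits (adjusted p up to 0.240, without AC replicate 1).

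The remaining lists had calls in both directions, or 1 call, beside 3.33% called over all tested circRNAs. Sugar, sulfate, polyamine and nucleotide enzymes had 2 higher (Smox and H6pd) and 2 lower calls (Cryl1 and Papss1) among 8. Actin, adhesion and GTPase regulators had 5 higher and 6 lower among 46, the lower ones all of Arhgap10 and Arhgap32 and the higher ones of Psd3, Cd2ap, Tns3 and Nedd9, with a median of -0.07. RNA binding, splicing and translation regulators had 2 higher (Samd4 and Mbnl2) and 2 lower (Cpeb3 and Tpr) among 36, and cell division 1 higher (Espl1) among 9. With the authors' constant the sugar and actin lists kept no higher call, and these 4 medians were -0.65, -0.43, -0.55 and -0.35, against -0.30, -0.07, -0.17 and 0.02 here.

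**Figure D4:**
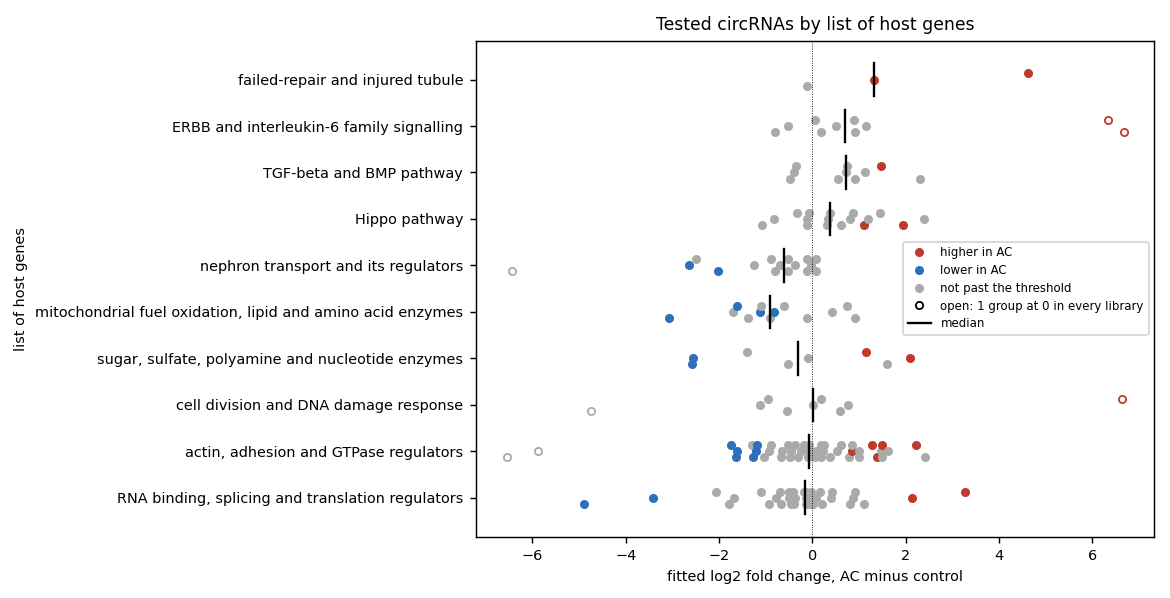
Fitted log2 fold change of AC against control (horizontal axis) of the tested circRNAs of 10 lists of host genes, with the median of each list as a black line. Red points passed as higher and blue points as lower in AC, grey points did not pass, and open points have 1 group at 0 in every library; the 4 calls of mitochondrial fuel oxidation lie below 0 and those of the 4 uppermost lists above it.

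Markers of cell types could be followed only where their genes host a listed circRNA. None of 29 immune genes did, so these counts give no measure of immune cells. Fibroblast and pericyte genes gave 2 hosts of 27 (Meis2 and Notch3), with 22 and 7 counts in AC and 6, 7 and 0 in control. Endothelial genes gave 2 of 18 (Flt1 and Tek), with 0 and 9 counts against 5, 5 and 6, and podocyte genes 4 of 18. Proximal tubule genes gave 2 of 24 (Lrp2 and Slc4a4), with 66 and 45 counts in AC and 61, 182 and 102 in control. Loop, distal nephron and collecting duct genes gave 6 of 29, with 45 and 68 counts in AC and 134, 254 and 176 in control. Klhl3 is one of these 6 hosts and itself gave 15 and 24 of these counts in AC and 77, 143 and 96 in control. Of the 6 tested circRNAs of this list, 4 had a negative log2 difference and 2, both of Erbb4, a positive one. Whether fewer such cells account for the lower Klhl3 count was not tested.

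The 5 most abundant tested circRNAs of control kidney were those of Gigyf2, Rnf169, Arhgap10, Rasa2 and Rad52. Besides Arhgap10 none passed: Gigyf2 (mmu_circ_0000057) had 748 and 424 counts in AC against 568, 907 and 924, and Rnf169 (mmu_circ_0001605) 425 and 457 against 520, 937 and 659. Rasa2 and Rad52 had log2 differences of -0.21 (SE 0.18) and -0.68 (SE 0.23), with adjusted p of 0.667 and 0.158.

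The direct contrast of AC with UUO had 0 of 1471 circRNAs past the threshold (0%) by edgeR and 0 by limma, with 82 at an unadjusted p under 0.05. DESeq2 called 2, the loops of Spast and Frmd4b, both higher in AC than in UUO. Neither passed in AC against control (log2 0.70, SE 0.81, and -0.38, SE 0.68). In UUO they had 0, 0 and 0 counts and 0, 0 and 3, against 4, 27 and 10 and 11, 45 and 26 in control. UUO against control had 64 calls (4.35%). Of the 49 AC calls, which were chosen by their AC values, 33 also passed in UUO in the same direction and 48 had the same sign. Values of both injuries against the shared 3 controls are given side by side for the members, and since both contrasts use the same controls their likeness is no independent support. Dcdc2a was at log2 4.62 in AC and 5.14 in UUO (125, 151 and 170 counts), and Samd4 at 3.26 and 3.48. Cpeb3 was at -4.90 and -2.75 (21, 8 and 16 counts in UUO), a difference of -2.14 (SE 0.71, unadjusted p = 0.00776, adjusted p = 0.816).

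Cryl1 was at -2.58 in AC and -1.67 in UUO, with a difference of -0.91 (SE 0.25, unadjusted p = 0.00223, adjusted p = 0.582). For Arhgap32, mmu_circ_0001764 was at -1.64 and -0.70 and mmu_circ_0001763 at -1.61 and -0.11, with 54, 43 and 45 counts of the latter in UUO against 9 and 20 in AC (adjusted p of the differences 0.469 and 0.582). The Dennd1b loop mmu_circ_0008223 had 0, 0 and 0 counts in UUO, beside 35 and 19 in AC, and this difference also missed the threshold (unadjusted p = 0.000322, adjusted p = 0.158). A difference that misses the threshold does not show that the injuries act alike, and none of the 49 is shown to be particular to AC.

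**Figure D5:**
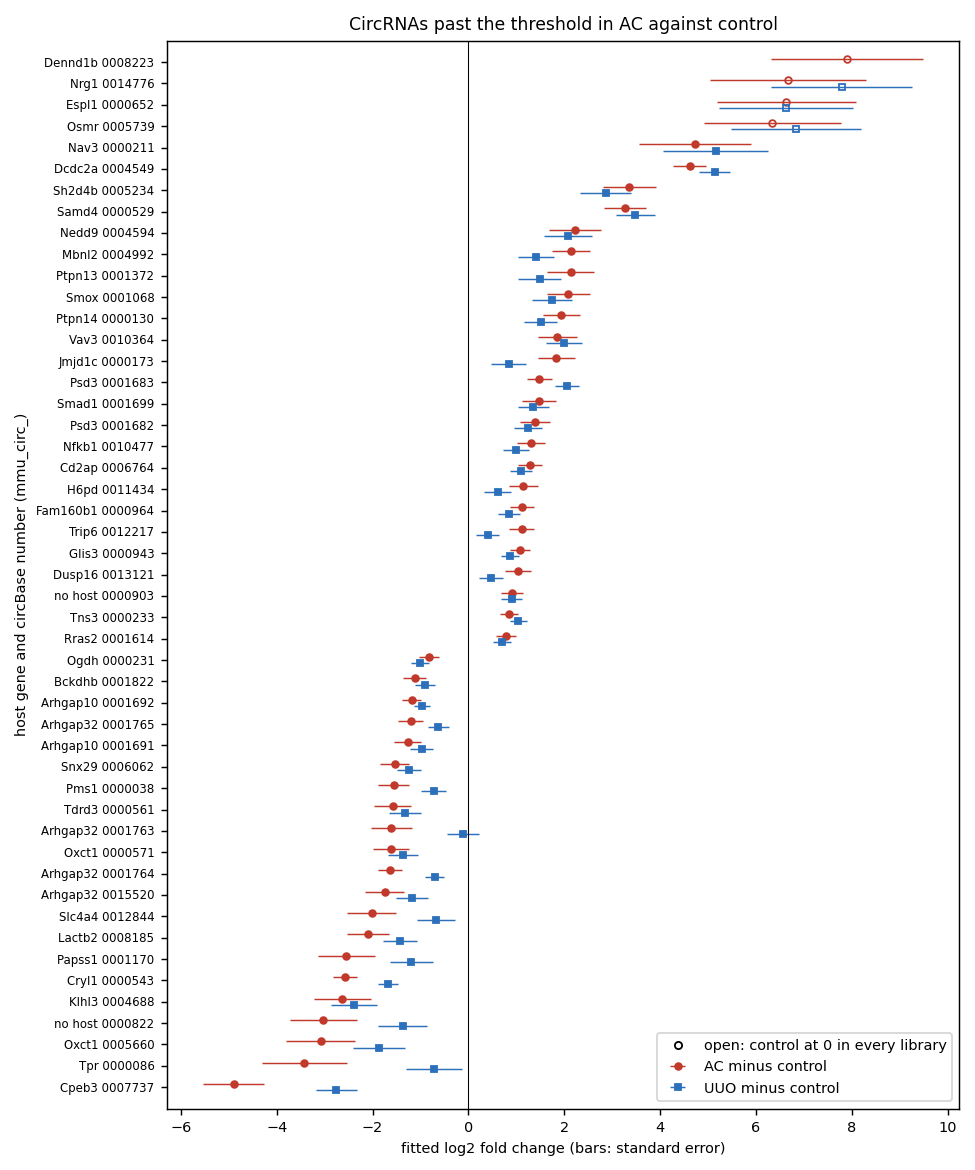
Fitted log2 fold change against the shared controls for the 49 circRNAs called in AC, in AC (red circles) and UUO (blue squares), with standard errors as bars. Open symbols have control at 0 in every library, and no UUO value is drawn for Dennd1b, which is at 0 in both UUO and control; the AC and UUO symbols lie on the same side of 0 for the others.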

How the data were processed

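RNA of 8 mouse kidney libraries was counted per circRNA by the authors; the deposited counts are whole numbers with a different total in each library. HISAT2 and StringTie and the build mm9 are named in the submitters' processing notes, with no version or role. The sources used here do not give the junction caller, its read minimum or the annotation. A second deposited table holds a signal, each count divided by 1 constant per library; what the constant stands for is not stated, and it served only as an alternative scale. Of the listed rows, 32 name no host and stay out of tests on hosts.

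The counts were fitted with edgeR 4.0.16 in R 4.3.3 (quasi-likelihood, TMM, filterByExpr with a count of at least 10 and a total of at least 15), all 8 libraries in 1 fit of 3 groups, with Benjamini-Hochberg adjustment over all features tested and a threshold of 0.05. Fitting UUO with the others gives the 2 AC libraries a shared estimate of the spread. Sums per host, and each circRNA against its host's others (diffSpliceDGE), used the same fit. A circRNA at 0 in a group was bounded against 3 counts over that group; exact intervals are at 95%. Scripts were tested on simulated counts. Alternatives were DESeq2 1.42.0, limma 3.58.1 (voom), RLE factors, the authors' constant, no filter, only the libraries of both groups, the replicate number as a block, and leaving out each library. Named are the calls, the other circRNAs of called hosts, passing or abundant list members, hosts and loops by smallest p, and the 5 most abundant circRNAs; the members and lists were chosen with earlier results of these data known. No label says whether the replicate numbers pair the libraries.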

Additional observations from a re-analysis of the deposited data

How the results depend on the processing

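The count of circRNAs called in AC against control was 49 and moved to 29 with the authors' constant as library size, 14 with only the AC and control libraries in the fit, and 11 to 38 on leaving out 1 library; DESeq2 gave 70, limma 39, RLE factors 49 and no filter 58. Host sums went from 41 to 26 with only both groups' libraries and 22 to 48 on leaving out 1 library. The test within hosts gave 0 to 1 calls on leaving out 1 library, 0 without AC replicate 1. AC against UUO gave 2 calls by DESeq2, 4 without the filter, 1 with only the libraries of both groups and 0 to 1 on leaving out 1 library. The cause was not tested. No called circRNA or host sum that had a value under these alternatives reversed its sign; DESeq2 gave one for 45 of 49 circRNAs, and the fit of only both groups' libraries for 47 of 49 circRNAs and 39 of 41 host sums. Nrg1 was at 0 in both groups without AC replicate 1. With the replicate number as a block, 5 circRNAs and 18 host sums were called, 1 circRNA within hosts and 0 in AC against UUO. Deviations of same-numbered libraries from their group means correlated at -0.11 to 0.04. The deviations of the 2 AC libraries mirror each other, so this check cannot decide whether the numbers pair the libraries. The 2 AC libraries and the depth, at which 1 count was worth 18.9 to 29.2 CPM, limit the precision.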
